A study of Mus musculus with 8 samples.

Results

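Transcripts of 10 genes that make or use small RNAs were followed in mouse embryos at the 2-cell stage, with and without a mutation in Brg1. The genes were Drosha and Dgcr8, Dicer1 and Tarbp2, the Argonaute genes Ago1, Ago2, Ago3 and Ago4, and the germline genes Piwil2 and Mael. They were taken by name, and every probe set (a group of short probes read as 1 value) that the platform's annotation ties to exactly 1 of these symbols was used. This gave 25 of the 45037 probe sets that are no controls, and 10 of 18193 genes. The arrays compared 4 wild type samples with 4 samples labelled Brg1 mutant, each made from 20 embryos. Brg1, now named Smarca4, encodes the motor subunit of BAF-type complexes, which use ATP to move nucleosomes, and the series title speaks of the maternal protein and of activation of the zygotic genome. Strain, the mutant allele and any Cre driver are not given in the labels, and the samples are called biological replicates with nothing said of separate animals, so each p-value reflects only how these samples spread.

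Small RNAs guide Argonaute proteins to matching transcripts. In the microRNA pathway, the nuclear complex of the nuclease DROSHA and the RNA-binding protein DGCR8 trims the primary transcript, and the nuclease DICER1, with its partner TARBP2, cuts out the duplex that is loaded into an Argonaute protein. AGO2 is the Argonaute that slices its target in mammals. Mouse oocytes also make endogenous small interfering RNAs that need DICER1 but not DGCR8, and they make much of their DICER1 from a shorter transcript that starts inside a retrotransposon. In the germline, PIWI proteins such as PIWIL2 (MILI) carry piRNAs, a class made without DICER1, and Maelstrom (Mael) acts with them against transposons.

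Signals are MAS5 values, a linear brightness per probe set, and the arrays' median signals lay between 36.3 and 47.6. The brighter Smarca4 probe set was lower in the mutant, with no overlap of the groups (log2 change -1.26, limma adjusted p = 0.0211). The other, 1426805_at, did not pass (log2 change 0.04, limma adjusted p = 0.963), and mutant replicate 1 read 451.1 there, above every wild type sample. Mutant replicates 3 and 4 stood apart. The granulosa enzyme gene Hsd3b1 read 8835 and 6889 there and at most 50.5 on the other 6 arrays, and the summed signal of 18 measured granulosa and cumulus markers was 20135 to 23670, against 1800 to 2927 in mutant replicates 1 and 2 and 2579 to 3431 in wild type. Of these 18 markers, 11 read higher in both of replicates 3 and 4 than in any wild type sample, 6 overlapped wild type (among them Cyp11a1, Amh, Amhr2 and Has2) and 1, Ptx3, was lower. The granulosa genes Inhba, Hsd17b1 and Vim lay under a bound on background on every wild type array. In wild type and mutant replicates 1 and 2 the brightest of these markers were Amhr2 (642.6 to 2018) and Nr5a2 (353.2 to 1029). Mutant replicates 1 and 2 also read above all wild type samples for Fst (93.2 and 77.8), Kitl (161.3 and 92) and Vim (31.1 and 21.5). For the other granulosa and cumulus markers that pair overlapped wild type. Summed signals of 8 measured blood markers were 768 to 840 in mutant replicates 3 and 4, 356 to 406 in the other mutant pair and 259 to 431 in wild type. Cd52 alone read 360.4 and 453.1 in replicates 3 and 4, and at most 48.2 elsewhere. Of the 8, 4 read above all wild type samples in replicates 3 and 4, 2 below, and 2 overlapped. For 10 sperm markers the sums were 201 to 222, 468 to 543 and 394 to 710, with 0 above, 5 below and 5 overlapping. For 10 oviduct markers they were 850 to 1119, 742 to 941 and 631 to 1059, with 2 above, 2 below and 6 overlapping. All 14 measured oocyte and 2-cell markers were above the bound in each group. Their sums were 26107 to 39092 in wild type, 62287 to 69253 in mutant replicates 1 and 2 and 26835 to 29896 in replicates 3 and 4. The similar sums of wild type and replicates 3 and 4 cover unlike markers. In that pair 8 of the 14 read below all wild type samples, 3 above, and 3 overlapped. The ratio of 3 prime to 5 prime signal, a measure of RNA length, was also lower in every mutant than in every wild type sample, at 4.88 to 15 against 16.3 to 21.1 for actin and 6.63 to 7.33 against 8.58 to 10.1 for Gapdh. The summed hybridisation controls read 4.81 and 3.37 times the wild type mean in mutant replicates 1 and 2 and 0.713 to 1.24 times on the other 6 arrays. The results below are therefore also given with each mutant pair alone.

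Of the 25 probe sets, 21 were bright enough to be tested, and each of the 10 genes kept at least 1. In the mutant, 1 of the 21 (4.76%) was lower, 0 were higher and 20 did not pass limma at an adjusted p of 0.05. Among all tested probe sets, 6.56% passed, 3.58% lower and 2.98% higher, so the share of members that changed was near the background. At an unadjusted p under 0.05 there were 7 of 21 (33.3%), beside 25.5% of all tested probe sets. The estimates leaned downward, with 15 negative and 6 positive, where 11975 of all 22518 tested probe sets were negative. Their median log2 change was -0.30, beside -0.05 over all tested probe sets. Several probe sets read the same gene, so the 21 estimates are not independent. On the brightest probe set of each of the 10 genes 8 were negative, beside 6345 of 11934 tested genes. Under the other scalings 16 to 18 of the 21 probe sets were negative, with medians of -0.44 to -0.47. The median over all tested probe sets itself shifted there to between -0.14 and -0.22. Wild type and mutant samples did not overlap for 4 of the 21, 2 below and 2 above, where 9.67% and 7.83% of all tested probe sets did not overlap in these directions. The plot of every tested probe set shows these 4, on Ago2, Tarbp2, Dicer1 and Ago3, against the others.

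**Figure D1:**
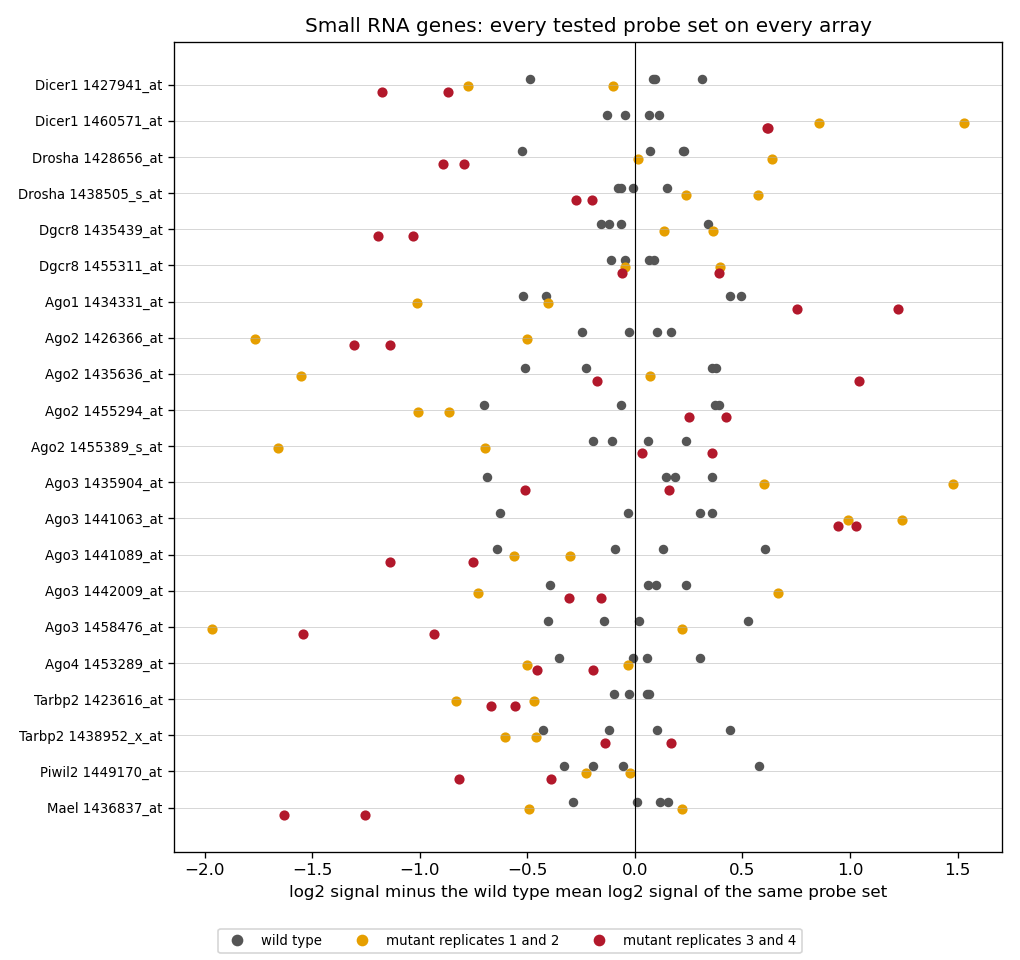
Log2 signal of each of the 21 tested probe sets on each of the 8 arrays, as the difference from the wild type mean of the same probe set (x axis, log2 units); grey points are wild type, orange points mutant replicates 1 and 2, red points mutant replicates 3 and 4. The mutant points lie wholly on one side of the wild type points for 4 probe sets, Ago2 1426366_at and Tarbp2 1423616_at to the left and Dicer1 1460571_at and Ago3 1441063_at to the right.

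Drosha and Dgcr8, the nuclear step, did not pass the test on any probe set. The brightest Drosha probe set, 1438505_s_at, read 2593, 2233, 2325 and 2212 in wild type and 2753, 3474, 2035 and 1930 in the mutant. Mutant replicates 1 and 2 lay above all wild type samples and replicates 3 and 4 below them. The log2 change over all samples was 0.08 (SE 0.248, limma adjusted p = 0.871), and it had the opposite sign with median or 75th percentile centring (-0.09 and -0.06). The second Drosha probe set, 1428656_at, had a log2 change of -0.26 (limma adjusted p = 0.706). With the mutant pairs taken alone it was 0.33 for replicates 1 and 2 (limma adjusted p = 0.532) and -0.84 for replicates 3 and 4 (limma adjusted p = 0.0234). The remaining one, 1438440_at, was too dim to be tested, with signals from 8.5 to 65.9 over the 8 arrays.

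For Dgcr8, which encodes the RNA-binding subunit of that complex, the bright probe set 1435439_at read 474.5, 627.5, 444.9 and 455.4 in wild type. In the mutant it read 638.4 and 545.2 in replicates 1 and 2 and 242.7 and 216.5 in replicates 3 and 4. The first mutant pair thus lay within or just above the wild type range and the second below it, and over all samples the log2 change was -0.43 (SE 0.366, limma adjusted p = 0.506). With the pairs taken alone it was 0.25 (limma adjusted p = 0.557) and -1.11 (limma adjusted p = 0.00282). The other tested Dgcr8 probe set, 1455311_at, differed little between groups, at 235 ± 15.2 in wild type and 267 ± 47.2 in the mutant (SD, n = 4 each). Its log2 change was 0.17 (limma adjusted p = 0.684), and -0.01 with median centring. The remaining Dgcr8 probe sets, 1422981_at and 1446169_at, were not tested and lay under the background bound on all 4 wild type arrays.

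Dicer1, the nuclease that both microRNAs and endogenous small interfering RNAs need, was read by 2 tested probe sets whose estimates had opposite signs. The brighter, 1427941_at, read 1209, 695.1, 1033 and 1042 in wild type and 908.1, 570.1, 432.3 and 534.3 in the mutant. Mutant replicates 2, 3 and 4 were below every wild type sample and replicate 1 was within their range. The other, 1460571_at, read 239.8, 274.9, 254.5 and 283.7 in wild type and 474.8, 759.3, 402.5 and 403.9 in the mutant, so every mutant sample lay above every wild type sample. Neither passed over all 8 samples, with log2 changes of -0.73 (SE 0.285, limma adjusted p = 0.141) and 0.91 (SE 0.256, limma adjusted p = 0.0591).

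Taken with each mutant pair alone, Dicer1 probe set 1460571_at passed in both. Its log2 change was 1.19 with replicates 1 and 2 (SE 0.265, limma adjusted p = 0.0304) and 0.62 with replicates 3 and 4 (SE 0.188, limma adjusted p = 0.0262). It was the single member probe set of 21 that passed with the first pair, where 6.71% of all tested probe sets did, 3.60% higher and 3.11% lower. With the second pair 41.6% of all tested probe sets passed, 18.3% higher and 23.2% lower, so passing there was common. For 1427941_at the log2 changes with the first and second pair were -0.44 (limma adjusted p = 0.379) and -1.02 (limma adjusted p = 0.00835). These estimates share the wild type samples.

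Within each array, the log2 ratio of the dimmer to the brighter Dicer1 probe set was -1.89 ± 0.42 in wild type and -0.26 ± 0.56 in the mutant (SD, n = 4 each). It ran from -2.33 to -1.34 in wild type and from -0.94 to 0.41 in the mutant, without overlap. The difference of 1.64 had a two-sided exact permutation p of 0.0286, the smallest that 70 assignments allow, and 0.157 after Benjamini-Hochberg adjustment over 11 such ratios, a test chosen after these signals were seen. The stretch of the Dicer1 transcript that each one reads was not known here. The 3 prime to 5 prime ratios given above moved with the groups as well, and their part in this ratio was not tested. Because MAS5 values depend on the probes, the levels of the probe sets were not compared with each other.

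Tarbp2, which encodes the double-stranded RNA-binding partner of DICER1, had narrow groups on its brighter probe set, 1423616_at. Wild type samples read 163.7, 154.6, 147.4 and 164.7 and mutant samples 88.4, 113.8, 99.2 and 107. The groups did not overlap, with means of 158 ± 8.18 and 102 ± 10.9 (SD, n = 4 each). The log2 change of -0.63 (SE 0.224) did not pass over all samples (limma adjusted p = 0.113). It was close to that with either mutant pair alone, at -0.65 for replicates 1 and 2 (limma adjusted p = 0.14) and -0.61 for replicates 3 and 4 (limma adjusted p = 0.0403). The second Tarbp2 probe set, 1438952_x_at, whose suffix marks probes that can also bind other transcripts, read 67.7 ± 17.3 and 56.4 ± 13.7 (SD, n = 4 each) and had a log2 change of -0.26 (limma adjusted p = 0.657).

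Ago2, the slicing Argonaute, held the probe set that passed. On 1426366_at, wild type samples read 666.7, 636.9, 499.1 and 582.1, and mutant samples read 418.1, 174.4, 239.5 and 269.2. Every mutant sample was below every wild type sample, and mutant replicate 1 came nearest. The mean signal fell from 596 ± 73.6 to 275 ± 103 (SD, n = 4 each), with a log2 change of -1.18 (SE 0.283) and a limma adjusted p of 0.0368. That is 2.26-fold; folds here and below are taken from the mean log2 signals, not from the ratio of the printed means. The size was much the same with each mutant pair, -1.13 for replicates 1 and 2 (limma adjusted p = 0.0761) and -1.22 for replicates 3 and 4 (limma adjusted p = 0.0012). The call was lost without any 1 of wild type replicates 1, 2, 3 and 4 (limma adjusted p = 0.115, 0.0873, 0.0822 and 0.101) and without mutant replicate 3 or 4 (limma adjusted p = 0.0919 and 0.084). In those 6 fits 0.324% to 1.96% of all tested probe sets passed, and 12% and 13% without mutant replicate 1 or 2, where the call was kept. As in any bulk sample, fewer cells of a type and less RNA per cell cannot be told apart.

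The other 3 Ago2 probe sets had smaller estimates and did not pass. Their log2 changes were -0.49 for 1455389_s_at, -0.30 for 1455294_at and -0.15 for 1435636_at (limma adjusted p = 0.487, 0.703 and 0.88). With mutant replicates 1 and 2 alone all 3 had larger negative estimates, -1.18, -0.94 and -0.74, none past the threshold (limma adjusted p = 0.0549, 0.152 and 0.342). On 1455389_s_at, for instance, wild type samples read 197.2, 175.3, 222.7 and 165, mutant replicates 1 and 2 read 116.5 and 59.8, and mutant replicates 3 and 4 read 241.8 and 193.1. The first mutant pair lay below all wild type samples and the second overlapped them. With mutant replicates 3 and 4 alone the 3 estimates were positive, 0.19, 0.34 and 0.43 (limma adjusted p = 0.508, 0.449 and 0.396), and the granulosa marker signal was high on those arrays; its part in this was not tested. The log2 ratios of the 3 probe sets to 1426366_at were 0.69, 0.88 and 1.02 higher in the mutant, with two-sided exact permutation p of 0.229, 0.143 and 0.0571 and adjusted values of 0.279, 0.269 and 0.157 over the 11 ratios.

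**Figure D2:**
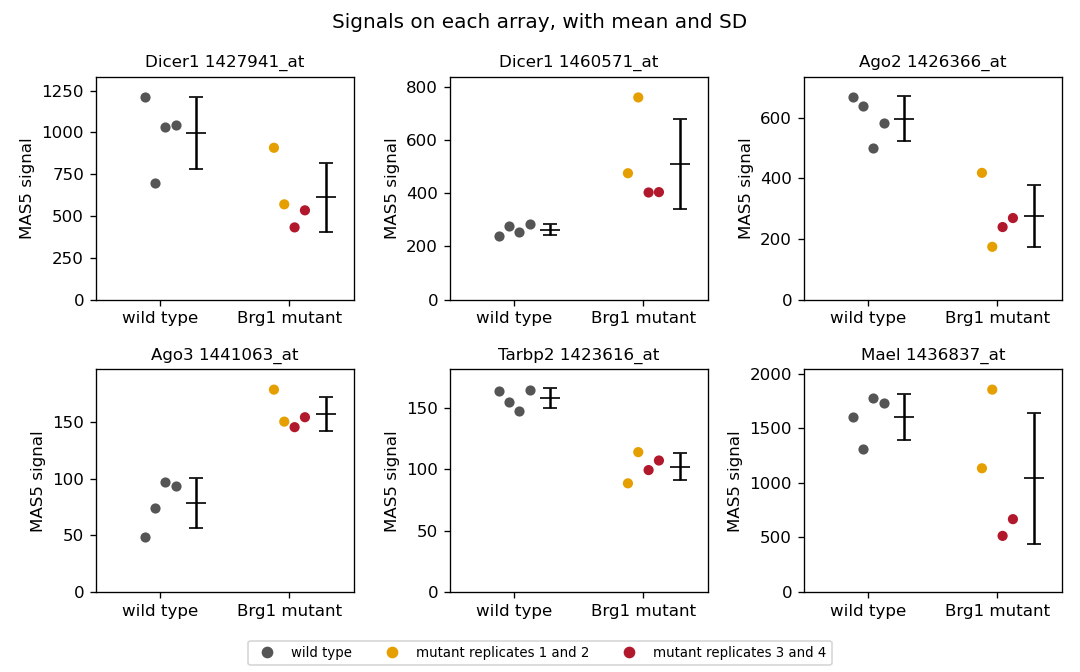
MAS5 signal (y axis, linear, from 0) of 6 probe sets on each array, wild type in grey and Brg1 mutant in orange (replicates 1 and 2) and red (replicates 3 and 4); bars are mean and SD of 4 samples. Mutant samples of Ago2 1426366_at read 174.4 to 418.1 against 499.1 to 666.7 in wild type, the estimates of the 2 Dicer1 probe sets are of opposite sign, and the lowest Mael values are those of mutant replicates 3 and 4.

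Ago1, Ago3 and Ago4, the Argonautes other than the slicing one, lie side by side on chromosome 4 in the order Ago3, Ago1, Ago4 (RefSeq, GRCm38.p6), with no other protein-coding gene between them. Their log2 changes over all samples differed in sign and none passed, and whether the genes change together was not tested. Ago1 (1434331_at) read 154.3, 159.6, 79.1 and 85.2 in wild type, 85.9 and 56.2 in mutant replicates 1 and 2, and 191.1 and 264.8 in mutant replicates 3 and 4. The last pair was above all wild type samples, whose own values fell into a higher and a lower pair. The log2 change was 0.14 over all samples (SE 0.488, limma adjusted p = 0.893). It was -0.71 with mutant replicates 1 and 2 (limma adjusted p = 0.279) and 0.99 with replicates 3 and 4 (limma adjusted p = 0.0468), and slightly negative under the other scalings (-0.07 to -0.01).

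Ago3 was read by 5 tested probe sets, 2 with positive and 3 with negative estimates, and none passed over all samples. On 1441063_at, wild type samples read 49, 74.1, 97.2 and 93.3 and mutant samples 178.9, 150.6, 145.7 and 154.5. Every mutant sample was above every wild type sample, and the log2 change was 1.05 (SE 0.282), just outside the threshold (limma adjusted p = 0.0518). It was 1.12 with mutant replicates 1 and 2 (limma adjusted p = 0.0749) and 0.99 with replicates 3 and 4 (limma adjusted p = 0.0315).

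The brightest Ago3 probe set by mean log2 signal, 1441089_at, went the other way, with 223.1, 360.7, 259.7 and 152.2 in wild type and 161.1, 192.9, 107.8 and 140.8 in the mutant. These groups overlapped (log2 change -0.69, SE 0.311, limma adjusted p = 0.196). The within-array log2 ratio of 1441063_at to it was -1.65 ± 0.74 in wild type and 0.09 ± 0.33 in the mutant (SD, n = 4 each), with a two-sided exact permutation p of 0.0286 and an adjusted 0.157 over 11 ratios. Of the other 3 Ago3 probe sets, 1458476_at had a log2 change of -1.06 (limma adjusted p = 0.183), 1435904_at of 0.43 (limma adjusted p = 0.565) and 1442009_at of -0.13 (limma adjusted p = 0.848). On 1458476_at mutant replicate 2 lay under the background bound, at 21.9.

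Ago4 was dim. Its tested probe set, 1453289_at, read 50.7, 63, 40 and 53 in wild type and 36, 49.9, 37.2 and 44.6 in the mutant, with overlapping groups and a log2 change of -0.30 (SE 0.3, limma adjusted p = 0.585). The untested 1429779_at read 10.2 to 50.9 in wild type and 32.7 to 61.4 in the mutant. Among the 6 members with several tested probe sets, 4 (Dicer1, Drosha, Dgcr8 and Ago3) had estimates of both signs, which is also the case for 42.2% of the 4698 genes of the array with several tested probe sets.

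Of the germline members, Mael was the one with the clearest split between the mutant pairs. The Mael probe set, 1436837_at, read 1606, 1308, 1776 and 1730 in wild type, 1134 and 1855 in mutant replicates 1 and 2, and 514 and 667.4 in mutant replicates 3 and 4. The first pair spanned the wild type range and the second lay below it. Over all samples the log2 change was -0.79 (SE 0.371, limma adjusted p = 0.212), with replicates 1 and 2 it was -0.14 (SE 0.254, limma adjusted p = 0.775) and with replicates 3 and 4 it was -1.44 (SE 0.196, limma adjusted p = 0.000487). Piwil2, on 1449170_at, read 96.8, 181.2, 106.1 and 116.9 in wild type and 103.8, 119.5, 92.7 and 69 in the mutant. These overlapped (log2 change -0.36, SE 0.295, limma adjusted p = 0.484).

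With mutant replicates 3 and 4 alone, 3 member probe sets were higher and 8 lower, together 11 of 21, in a fit where 41.6% of all tested probe sets passed, 18.3% higher and 23.2% lower. The 8 lower ones were of Mael, Ago2 (1426366_at), Dgcr8 (1435439_at), Dicer1 (1427941_at), Drosha (1428656_at), Tarbp2 (1423616_at) and Ago3 (1458476_at and 1441089_at). The 3 higher ones were of Dicer1 (1460571_at), Ago3 (1441063_at) and Ago1. By position alone, mutant replicates 3 and 4 lay below all wild type samples for 10 of the 21 and above them for 3, beside 34.5% and 24.9% of all tested probe sets. Mutant replicates 1 and 2 lay below for 5 and above for 4, beside 15.1% and 20.2%. The 2 sets of estimates, which share the wild type samples, had opposite signs for 9 of the 21 members, beside 41.5% of all tested probe sets. The granulosa marker signal moved with this pair, and its part in these values was not tested.

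**Figure D3:**
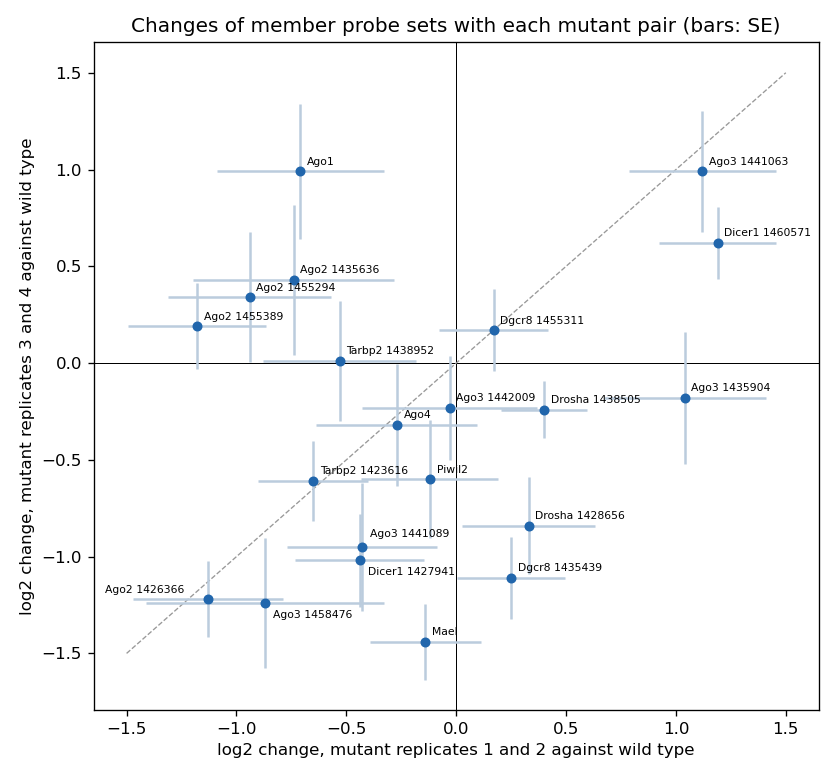
Log2 change against wild type estimated with mutant replicates 1 and 2 alone (x axis) and with mutant replicates 3 and 4 alone (y axis) for the 21 tested member probe sets; bars are standard errors and the dashed line marks equal change. Both axes use the same 4 wild type samples; 9 probe sets have opposite signs, among them Ago1 at -0.71 and 0.99, while Ago2 1426366 lies near the line at -1.13 and -1.22.

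The genes whose pattern over the 8 arrays was most like that of Ago2 1426366_at were Pde12, a mitochondrial nuclease that removes poly(A), Ska1, a spindle and kinetochore subunit, and Alppl2, an alkaline phosphatase. Their centred log2 signals differed from it by a mean of 0.0735, 0.0796 and 0.0937 per array, beside a median of 0.657 over 11933 genes. Pde12 read 615.2, 631.1, 454.1 and 501.8 in wild type and 360.8, 151.5, 205.6 and 207.4 in the mutant. As with Ago2, replicate 1 was the highest and replicate 2 the lowest of the mutant samples. Pde12 was picked for its likeness on these same arrays, so this match is no separate result.

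Partner genes of the microRNA and piRNA pathways were read on the brightest probe set of each gene. For Hspa8, Khsrp, Gtsf1 and Ddx17 it was 1455789_x_at, 1436813_x_at, 1441836_x_at and 1437773_x_at. Their suffix marks probes that can also bind other transcripts. For Ncbp1 1433663_s_at, Drosha 1438505_s_at and Ago2 1455389_s_at, which carry the suffix s_at, binding to other transcripts was not tested. Of 57 partner genes tested, 6 fell, 2 rose and 49 did not pass, where 4.03% of all tested genes fell and 3.01% rose, 7.04% in all. The median log2 change was -0.17 over the 57 and -0.05 over all tested genes. The lists had been drawn up with earlier results of these data known, and were not tested as sets. Other scalings gave 3 falls and 2 rises (quantile normalization), 8 and 1 (median centring) and 6 and 1 (75th percentile centring). Without mutant replicates 3 and 4 there were 6 falls and 3 rises, where 7.44% of all tested genes passed (3.58% lower, 3.86% higher). Without replicates 1 and 2 there were 20 and 7, where 43.5% passed (24.4% lower, 19.2% higher). Leaving out 1 sample ended most of these calls in 6 of the 8 fits. None of the 57 passed without wild type replicate 1, 3 or 4 or without mutant replicate 3, 3 fell without wild type replicate 2 and 1 fell without mutant replicate 4, in fits where 0.324% to 1.96% of all tested probe sets passed. Without mutant replicate 1 there were 6 falls and 2 rises and without mutant replicate 2 there were 7 and 3, where 12% and 13% of all tested probe sets passed.

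Among 34 tested microRNA partners, 4 fell and 2 rose on the brightest probe set of the gene. Ncbp1, the large subunit of the nuclear cap-binding complex, read 745.4, 632.8, 775.3 and 794.1 in wild type and 436.7, 342.8, 300.6 and 337.8 in the mutant, without overlap, and fell 2.09-fold (log2 change -1.06, SE 0.215, limma adjusted p = 0.0227). Khsrp, a splicing factor that also binds the terminal loops of some microRNA precursors, had narrow groups at 1928 ± 144 and 1055 ± 51.7 (SD, n = 4 each) and fell 1.82-fold (log2 change -0.87, limma adjusted p = 0.031). On these probe sets both passed with either mutant pair alone (limma adjusted p = 0.0462 and 0.000931 for Ncbp1, 0.0269 and 0.00291 for Khsrp). The other 2 tested Khsrp probe sets did not pass over all samples, with log2 changes of -0.56 and -0.86 (limma adjusted p = 0.189 and 0.0698). Fxr1, an RNA-binding relative of the fragile X protein that associates with Argonaute, fell 2.2-fold, and it too passed with either pair (log2 changes -1.29 and -0.99, limma adjusted p = 0.016 and 0.00829). Its other 3 tested probe sets did not pass over all samples, with log2 changes of -0.25 to -0.69 (limma adjusted p = 0.139 to 0.572). Ddx20 (GEMIN3), a helicase of the SMN complex, fell 2.1-fold (limma adjusted p = 0.0355), but did not pass with mutant replicates 1 and 2 alone (log2 change -0.88, limma adjusted p = 0.0861).

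The 2 microRNA partners counted as rising, each on its brightest probe set, are best known for other work. Hspa8, a chaperone that helps load small RNA duplexes among many other tasks, read 2220, 2284, 2672 and 2304 in wild type and 5667, 3931, 7936 and 5617 in the mutant, a rise of 2.37-fold (log2 change 1.25, limma adjusted p = 0.0232). Of its 3 other tested probe sets 2 passed in the same direction (limma adjusted p = 0.0258 and 0.015) and 1 did not (limma adjusted p = 0.081). Adar, an enzyme that turns adenosine into inosine in double-stranded RNA, gave contrary readings. Probe set 1434268_at was 2.15-fold higher, from 183 ± 33.7 to 405 ± 132 (SD, n = 4 each), while 1425405_a_at was 2.19-fold lower, from 261 ± 40.2 to 119 ± 19.2, and both passed with no overlap between groups (limma adjusted p = 0.0452 and 0.0251). No direction can therefore be given for Adar as a gene. The call of 1434268_at was lost under each of the other scalings (limma adjusted p = 0.0506 to 0.0743) and with mutant replicates 1 and 2 alone (log2 change 0.72, limma adjusted p = 0.13).

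Other microRNA partners that did not pass included Ddx17, a helicase of the DROSHA complex, with 2514 ± 297 in wild type and 4428 ± 799 in the mutant (SD, n = 4 each; log2 change 0.81, limma adjusted p = 0.0615). Every mutant sample was above every wild type sample, and it passed with either mutant pair alone (limma adjusted p = 0.0186 and 0.019). Its other tested probe set, 1452155_a_at, had overlapping groups and did not pass (log2 change 0.53, limma adjusted p = 0.244), nor with mutant replicates 1 and 2 alone (limma adjusted p = 0.394). Fmr1, the fragile X gene, had log2 changes of -0.64 and -0.72 on its 2 tested probe sets (limma adjusted p = 0.133 and 0.119).

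Of 23 tested piRNA partners, 2 fell and 0 rose. An unadjusted p under 0.05 was found for 7 (30.4%), beside 27% of all tested genes. Gtsf1, a zinc finger cofactor of PIWI proteins, read 792.6, 677.6, 978.7 and 1346 in wild type and 191.3, 698.9, 236.6 and 267.8 in the mutant. Mutant replicate 2 overlapped the wild type samples and the other 3 were well below them, a fall of 3.02-fold (log2 change -1.60, SE 0.399, limma adjusted p = 0.0418). With mutant replicates 1 and 2 alone it did not pass (log2 change -1.33, limma adjusted p = 0.116). The other Gtsf1 probe set, 1452967_at, did not pass over all samples (log2 change -0.75, limma adjusted p = 0.0934). Tdrd3, a tudor domain protein known as a partner of topoisomerase 3B rather than for piRNAs, fell 2.43-fold on 1451545_at (log2 change -1.28, limma adjusted p = 0.0428). The groups overlapped there, with wild type replicate 2 at 833.9 and mutant replicate 4 at 845.4. On 1434869_at Tdrd3 did not fall (log2 change 0.19, limma adjusted p = 0.791). Pld6, a mitochondrial nuclease of piRNA production, read 177.6, 185.9, 79.1 and 73.3 in wild type and 70.7, 60.6, 34.5 and 40.2 in the mutant. The groups did not overlap, but wild type replicates 3 and 4 lay close to mutant replicates 1 and 2. Pld6 did not pass (log2 change -1.25, limma adjusted p = 0.0885). Wdr77, the partner of the methyltransferase PRMT5, had a log2 change of -0.88 on its brighter probe set and 0.66 on the other, and neither passed (limma adjusted p = 0.106 and 0.556).

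**Figure D4:**
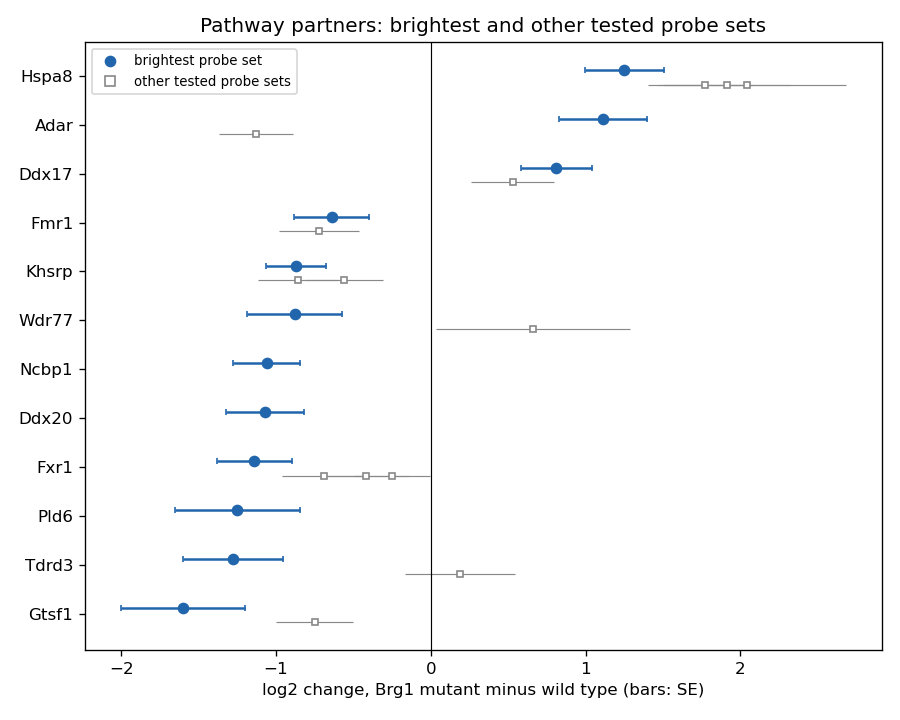
Log2 change (Brg1 mutant minus wild type, x axis) with its standard error for 12 partner genes, on the brightest probe set of each gene (filled circles) and on its other tested probe sets (open squares). Ncbp1, Ddx20 and Pld6 have a single tested probe set, and for Adar the 2 readings are 1.11 and -1.13.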

How the data were processed

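The authors deposited 1 linear intensity for each probe set, computed with MAS5 according to the submitters' processing notes (version not given in the sources used here). All 8 arrays have a 2% trimmed mean of 150 and were not rescaled. Values under 1 were raised to 1 before log2 was taken. Without 64 control probe sets, the brighter 50% by mean log2 signal, 22518 probe sets, entered limma 3.58.1 (R 4.3.3) with an intensity trend, two-sided; p-values were adjusted over all of them (Benjamini-Hochberg), with a threshold of 0.05. The procedure was tested on simulated data with normal noise of the wild type spread on all 8 arrays. That setting lacks the split between the mutant pairs. The number of arrays limits the precision.

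Gene names were those of the platform's annotation table (34945 probe sets with 1 symbol, 932 with several, 9160 with none), and 34741 matched RefSeq of GRCm38.p6, which changed 0. Partners and markers are counted on each gene's brightest probe set. The bound on background is each array's 95th percentile of 27 Bacillus control probe sets. Of 74 partner names, 63 were measured, 57 tested, and 4 were older names of genes already listed.

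All 10 members with all their probe sets are named, with Smarca4, Hsd3b1 and Vim, the partners that passed (at most 6 each way) and those with the smallest adjusted p up to 12 in all, and the 3 genes most like the member with the smallest adjusted p. Other markers were named after their values were seen. Members and lists were chosen with earlier results of these data known.

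Alternatives changed the scaling (quantile, median, 75th percentile), the filter (none, upper 30%), the offset added before log2, the trend, the array weights or the block, or left out 1 sample or 1 mutant pair. Ratios of probe sets within arrays were compared by exact permutation over 70 assignments.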

Additional observations from a re-analysis of the deposited data

Results flagged for a closer look

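In 2 of 66 groups of 4 examined, 1 mutant sample stood far from the other 3, and chance alone marks about 1 in 20 groups. For Fxr1 (1417598_a_at), mutant replicate 4 read 1196 and the other mutant samples 763.7 to 777.7, so that 0.959 of the group's log2 range lay in that gap. For Ddx20 (1416751_a_at), mutant replicate 1 read 702.8 and the others 372.9 to 406.6, a share of 0.863. Both samples lay toward the wild type values.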

How the results depend on the processing

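Of the member probe sets, 0 were higher in the mutant in the reported fit, 1 with mutant replicates 3 and 4 left out, 2 in the upper 30%, 3 with array weights, 3 with mutant replicates 1 and 2 left out, and 0 to 1 with each sample left out. Lower ones numbered 1 in the reported fit, 8 with array weights, 8 without mutant replicates 1 and 2, 0 without mutant replicates 3 and 4, 0 with no intensity trend, and 0 to 3 with each sample left out. With array weights 51% of all tested probe sets passed (28.4% lower), and without mutant replicates 1 and 2 41.6%, so these larger counts stand against larger backgrounds. For Ago2 1426366_at the limma adjusted p was 0.0505 with no intensity trend. Partner genes higher in the mutant numbered 2 in the reported fit, 1 with median centring, 75th percentile centring, no filter or no intensity trend, 8 with array weights, 7 without mutant replicates 1 and 2 and 0 to 3 with each sample left out. Lower ones numbered 6 in the reported fit, 3 with quantile normalization or no intensity trend, 24 with array weights, 20 without mutant replicates 1 and 2 and 0 to 7 with each sample left out. The cause was not tested. With the replicate number as a block, 0 members and 0 partners passed in either direction (limma adjusted p = 0.0895 for Ago2 1426366_at), in a fit where 10 higher and 5 lower of all 22518 tested probe sets passed. No pairing by single number was seen: same-numbered samples' deviations from their group means correlated at -0.177 to 0.024, and 1 of 8 samples correlated best with its own number. A batch shared by several samples was not tested.

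Estimates of members that had not passed changed sign as follows. Without mutant replicates 3 and 4 they were 0.33 for Drosha 1428656_at, 0.25 for Dgcr8 1435439_at and -0.71 for Ago1. Without replicates 1 and 2 they were -0.24 for Drosha 1438505_s_at, 0.43, 0.34 and 0.19 for Ago2 1435636_at, 1455294_at and 1455389_s_at, -0.18 for Ago3 1435904_at and 0.01 for Tarbp2 1438952_x_at. With array weights the same 6 were -0.17, 0.65, 0.37, 0.14, -0.05 and 0.11. Ago1 was -0.07 with quantile normalization, -0.04 with median and -0.01 with 75th percentile centring, Drosha 1438505_s_at -0.09 and -0.06 with these centrings, and Dgcr8 1455311_at -0.01 with median centring. With each sample left out, sign changed for Drosha 1438505_s_at (-0.08 to 0.20), Ago1 (-0.22 to 0.52), Ago2 1435636_at (-0.55 to 0.31) and Ago3 1442009_at (-0.40 to 0.07).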
